A study of Mus musculus with 8 samples.

Results

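Prostaglandins, thromboxane and leukotrienes are short-lived lipid signals, together called eicosanoids, and the genes described here encode enzymes that make them. They were the transcript clusters with a single gene symbol in the platform annotation that matched a list of 10 symbols, and where a gene had several such clusters the brightest over the 8 arrays was to be taken. The rule found 9 genes of 19938 with such a cluster, each with 1 cluster: Pla2g4a, Ptgs2, Ptgds, Hpgds, Ptges, Tbxas1, Alox5, Alox5ap and Ltc4s. Ptgs1 was not analysed here. RNA came from corpus callosum, the white matter tract between the cerebral hemispheres, dissected by hand from perfused male wild-type C57BL/6 mice aged 8 weeks per the labels. The control group was 4 mice on normal diet. The cuprizone group was 4 mice fed 0.25% cuprizone, a copper chelator that damages oligodendrocytes, for 1 week. Each mouse gave 1 Affymetrix Mouse Gene 1.0 ST array, whose probes lie along the whole transcript, and levels are given on the log2 scale.

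Most eicosanoids start from arachidonic acid, which phospholipases cut out of membrane lipids. Cyclooxygenases turn it into an unstable prostaglandin, from which separate synthases make prostaglandin D, prostaglandin E and thromboxane. Alternatively, 5-lipoxygenase, helped by its activating protein, makes a leukotriene precursor that a further synthase joins to glutathione. In brain, microglia, perivascular macrophages, vessels, meninges and oligodendrocytes each carry part of this machinery.

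Promoter stretches are shown for both genes that fell (Ptgds and Pla2g4a), for the gene that rose (Tbxas1) and for Hpgds, whose product catalyses the same reaction as that of Ptgds. Each is the 250 bases before the annotated start, read 5′ to 3′ on the gene's own strand, from RefSeq (GRCm38.p6). RefSeq entries were matched for 8 of the 9 genes, all but Alox5ap. Capitals mark matches, on either strand, to any of 3 short motifs. The myeloid factor encoded by Spi1 binds the core GAGGAAG. Factors of the SOX family, which act in oligodendrocytes among other cells, bind the core ACAAAG. The third motif, the TATA box, was searched as TATAAA. The Ptgds stretch lies at chr2:25469750-25469999 on the minus strand, that of Pla2g4a at chr1:149961291-149961540 on the minus strand, that of Tbxas1 at chr6:38918736-38918985 on the plus strand and that of Hpgds at chr6:65144731-65144980 on the minus strand.
Ptgds: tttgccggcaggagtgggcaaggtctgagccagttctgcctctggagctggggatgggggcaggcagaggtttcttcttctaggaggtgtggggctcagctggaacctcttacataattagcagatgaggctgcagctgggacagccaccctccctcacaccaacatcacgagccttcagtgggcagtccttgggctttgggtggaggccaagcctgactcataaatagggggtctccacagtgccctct
Pla2g4a: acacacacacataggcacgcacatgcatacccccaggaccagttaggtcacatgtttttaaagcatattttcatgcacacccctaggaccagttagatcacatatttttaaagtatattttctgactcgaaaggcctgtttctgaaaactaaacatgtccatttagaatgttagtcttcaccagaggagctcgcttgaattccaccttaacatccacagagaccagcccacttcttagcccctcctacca
Tbxas1: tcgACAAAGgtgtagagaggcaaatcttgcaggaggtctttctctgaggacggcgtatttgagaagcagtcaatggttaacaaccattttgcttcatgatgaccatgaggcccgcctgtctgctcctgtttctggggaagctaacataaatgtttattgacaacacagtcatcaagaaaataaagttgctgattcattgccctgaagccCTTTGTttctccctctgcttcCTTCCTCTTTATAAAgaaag
Hpgds: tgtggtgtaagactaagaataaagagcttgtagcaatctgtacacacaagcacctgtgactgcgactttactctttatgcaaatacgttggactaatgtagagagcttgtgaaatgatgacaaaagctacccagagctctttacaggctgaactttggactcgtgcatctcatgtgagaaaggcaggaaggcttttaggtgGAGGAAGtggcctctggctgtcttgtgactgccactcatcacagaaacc
The GAGGAAG letters stood in 2 of the 8 genes searched, Hpgds, 49 bases before the start, and Tbxas1, 20 bases before the start and on the opposite strand, where a pair of TATAAA matches on both strands overlap each other beside it. The SOX core also stood in 2 of the 8, at 2 places in Tbxas1, 247 and 41 bases before the start, and once in Ltc4s, 54 bases before it. The TATA box stood in 2 of the 8 as well, Tbxas1 and a further window of Pla2g4a. Of 32851 promoter windows of this length, 10.6% held the Spi1 core, 16.5% the SOX core and 12.4% the TATA box. These matches describe the letters only. For Pla2g4a the stretch before the most upstream of its annotated starts is shown, and neither it nor that of Ptgds held any of the 3 motifs. The window before its other annotated start (chr1:149922440-149922689, minus strand) held a TATAAA match 200 bases before that start, on the opposite strand.

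After 1 week of cuprizone the enzyme genes did not move as a block. Ptgds and Pla2g4a fell, Tbxas1 rose slightly, and the other 6 did not pass the threshold. A gene was called changed at an adjusted p under 0.05 in limma, fitted over 23410 gene-named clusters, of which 4.71% were called higher and 3.52% lower. Of the 9 genes 1 was called higher and 2 lower, all 9 were tested, and no filter on low values was applied. The call of Tbxas1 held in 8 of 19 settings of the fit, the main one included. Its log2 difference was 0.20, and that of the uncalled Hpgds was also 0.20. The median log2 difference of the 9 genes was -0.0098, and that of all clusters tested was -0.0074. All cuprizone arrays lay above all controls for 2 of the 9 genes and below them for 2, against 8.24% and 7.09% of all clusters.

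**Figure D1:**
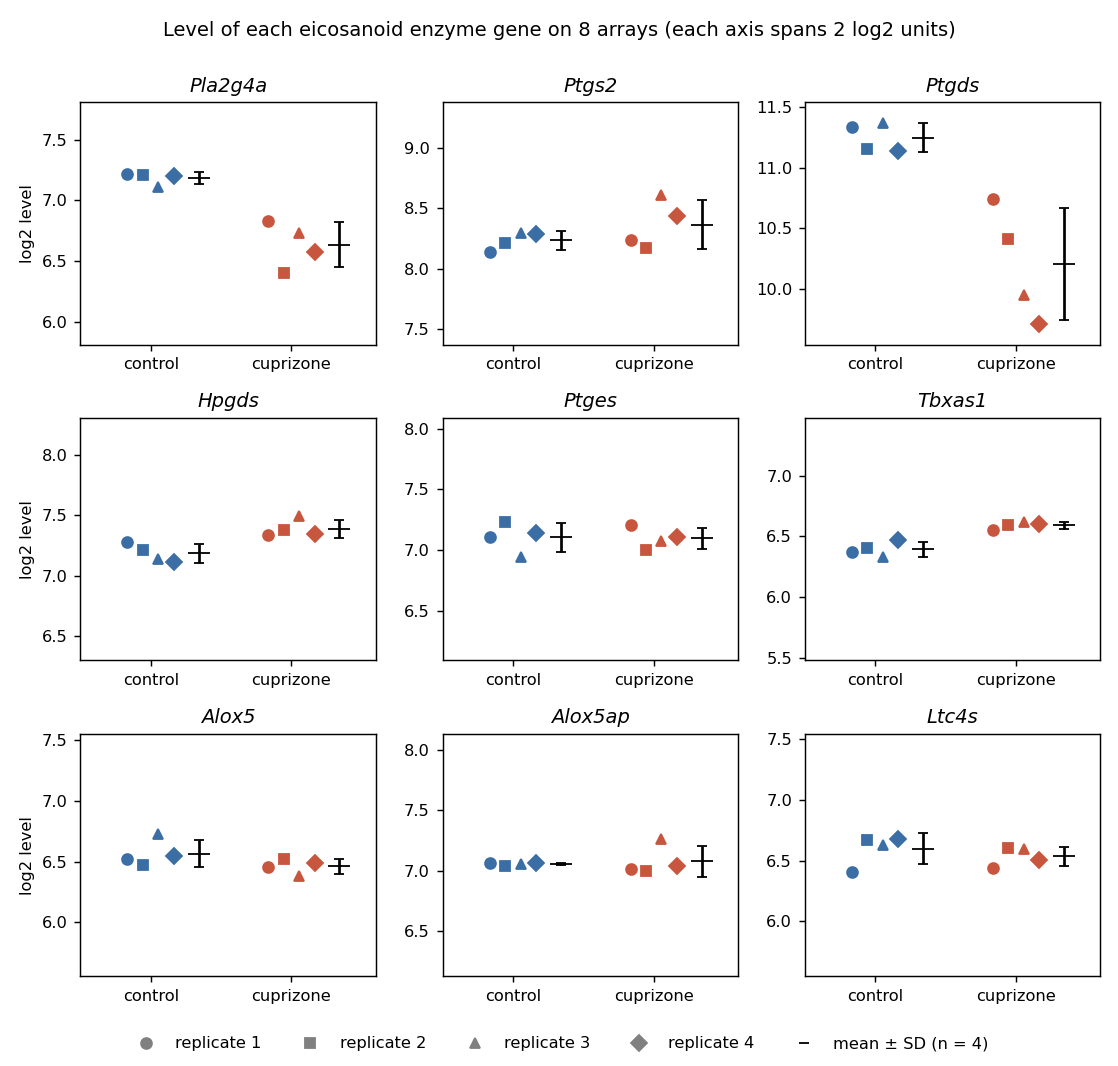
Log2 level (vertical axis, each spanning 2 log2 units) of the 9 enzyme genes on each of 4 control and 4 cuprizone arrays, with a marker shape per replicate number and black bars for the mean ± SD of 4 arrays. The 4 cuprizone arrays lie below every control array for Ptgds (9.71 to 10.74 against 11.13 to 11.37) and for Pla2g4a, and above every control array for Hpgds and Tbxas1.

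Ahead of both branches stands Pla2g4a (transcript cluster 10358434), the cytosolic phospholipase that releases arachidonic acid from membranes. Its log2 level was 7.22, 7.21, 7.11 and 7.20 on control replicates 1 to 4 and 6.83, 6.40, 6.73 and 6.58 on cuprizone replicates 1 to 4. All 4 cuprizone arrays lay below all 4 controls, and they spread more widely (SD 0.19 against 0.05). Pla2g4a fell from 7.19 ± 0.05 to 6.63 ± 0.19 (mean ± SD, n = 4 each), a log2 difference of -0.55 ± 0.09 (SE, limma adjusted p = 0.00224), which is 1.47-fold lower. A larger absolute difference was found in 2.60% of all clusters.

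Ptgs2 (transcript cluster 10350516), the inducible cyclooxygenase, stood at 8.14, 8.21, 8.30 and 8.29 on the control arrays and at 8.24, 8.17, 8.61 and 8.44 on the cuprizone arrays. Cuprizone replicates 3 and 4 were above every control, and replicates 1 and 2 lay among the controls. The log2 difference was 0.13 ± 0.09 (SE), with a 95% confidence interval of -0.07 to 0.33 (limma adjusted p = 0.496). The interval leaves room for an increase of up to 1.26-fold.

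Ptgds (transcript cluster 10480734) encodes the lipocalin-type prostaglandin D synthase, which also carries lipophilic molecules in cerebrospinal fluid and is made by oligodendrocytes, meninges and choroid plexus. It had the largest difference of the 9 genes. Its log2 level was 11.34, 11.16, 11.37 and 11.13 on control replicates 1 to 4 and 10.74, 10.41, 9.95 and 9.71 on cuprizone replicates 1 to 4. No cuprizone array overlapped the controls, and replicate 4 had fallen by 1.54 against 0.51 in replicate 1. Ptgds fell from 11.25 ± 0.12 to 10.20 ± 0.46 (mean ± SD, n = 4 each), a log2 difference of -1.05 ± 0.18 (SE, limma adjusted p = 0.00460), or 2.07-fold lower with a 95% confidence interval of 0.37 to 0.64 for the ratio of cuprizone to control. Without moderated variances the limma adjusted p was 0.0684, the highest of 19 alternatives, and the lowest was 0.000691. A larger absolute difference was found in 0.756% of all clusters.

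Hpgds (transcript cluster 10545101), the haematopoietic prostaglandin D synthase of microglia and mast cells, catalyses the same step with glutathione and is unrelated in sequence family to Ptgds. It stood at 7.28, 7.21, 7.14 and 7.11 on the control arrays and at 7.33, 7.38, 7.49 and 7.35 on the cuprizone arrays. All 4 cuprizone arrays were above all 4 controls, most narrowly for cuprizone replicates 1 and 4. The log2 difference was 0.20 ± 0.06 (SE), with a 95% confidence interval of 0.07 to 0.34 and a limma adjusted p of 0.0683, so it missed the threshold. With clusters below the lower quartile of level left out the adjusted p was 0.0439, and over the 18 alternatives it ranged from 0.0439 to 0.171.

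The balance of both prostaglandin D synthases was compared within each array, a comparison chosen after the values were seen. Relative to the control mean, the log2 ratio of Ptgds to Hpgds lay between -0.12 and 0.17 on the controls and at -0.66, -1.04, -1.61 and -1.70 on cuprizone replicates 1 to 4. The mean of the cuprizone arrays was -1.25 ± 0.49 (SD, n = 4), a 2.38-fold lower ratio, and all 4 were below every control. This separation follows from those of both genes and was not tested on its own. For single genes, an exact permutation test, two-sided over all 70 ways to split the arrays, gave p = 0.0286 for each of Pla2g4a, Ptgds, Hpgds and Tbxas1. This is the smallest p it can give, and every gene whose groups do not overlap gets it. It therefore only restates their separation, shared by 8.24% (higher) and 7.09% (lower) of all clusters. For the other members the permutation p was 0.14 or more.

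Ptges (transcript cluster 10481518), the inducible synthase of prostaglandin E, stood at 7.11, 7.23, 6.95 and 7.14 on the control arrays and at 7.21, 7.00, 7.07 and 7.11 on the cuprizone arrays. The groups overlapped throughout. The log2 difference was -0.0098 ± 0.07 (SE, limma adjusted p = 0.962), with a 95% confidence interval of -0.17 to 0.15. Its sign turned without control replicate 2 (0.032), control replicate 4 (0.0016) or cuprizone replicate 2 (0.023), so no direction can be given.

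Tbxas1 (transcript cluster 10537410), the thromboxane synthase of macrophages, microglia and platelets, stood at 6.37, 6.41, 6.33 and 6.47 on the control arrays and at 6.55, 6.59, 6.62 and 6.60 on the cuprizone arrays. All 4 cuprizone arrays were above all 4 controls and close to each other (SD 0.03). Tbxas1 rose by 0.20 ± 0.05 (SE, limma adjusted p = 0.0410), 1.15-fold higher. The adjusted p was 0.0641 to 0.110 without any 1 of 7 arrays (control replicates 1 to 3 and cuprizone replicates 1 to 4), and 0.0240 to 0.110 over the 18 alternatives. With arrays centred on their median the difference was 0.18 (adjusted p = 0.0672).

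**Figure D2:**
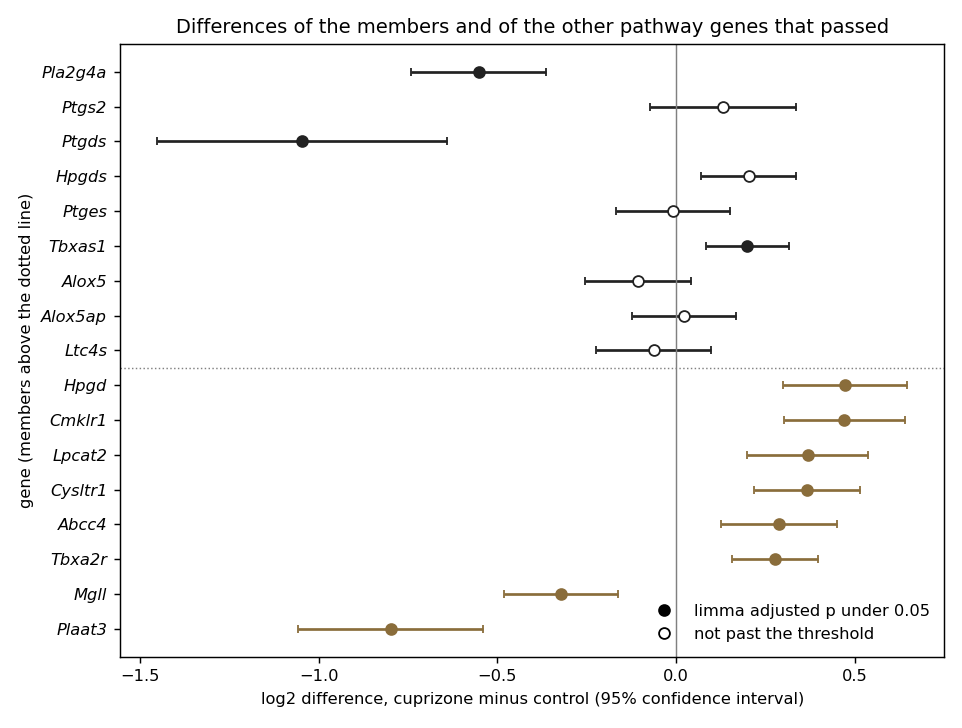
Log2 difference, cuprizone minus control, with its 95% confidence interval (horizontal axis) for the 9 enzyme genes, above the dotted line, and for the 8 other pathway genes past the threshold, below it. Filled points passed a limma adjusted p of 0.05; Ptgds at -1.05 and Pla2g4a at -0.55 lie left of 0 and Tbxas1 at 0.20 lies right of it, while the open points are not past the threshold.

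The 3 leukotriene genes showed no called difference. Alox5 (transcript cluster 10547153), the 5-lipoxygenase, stood at 6.52, 6.47, 6.73 and 6.55 on the control arrays and at 6.46, 6.52, 6.38 and 6.48 on the cuprizone arrays. Cuprizone replicates 1 and 3 were below every control and the groups overlapped. The log2 difference was -0.11 ± 0.07 (SE, limma adjusted p = 0.430), with a 95% confidence interval of -0.25 to 0.04.

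Alox5ap (transcript cluster 10527638), the membrane protein that presents arachidonic acid to the lipoxygenase, had nearly equal levels on the control arrays, 7.06, 7.04, 7.06 and 7.06. On the cuprizone arrays it stood at 7.01, 7.00, 7.26 and 7.04. Replicate 3 was above every control, by 0.21 over the control mean. Replicates 1, 2 and 4 were below every control, but only at -0.04, -0.06 and -0.02 relative to the control mean. The control SD was as low as 0.0085, so small deviations fell outside the control range. The log2 difference was 0.02 ± 0.07 (SE, limma adjusted p = 0.907), with a 95% confidence interval of -0.12 to 0.17, and it was -0.04 without cuprizone replicate 3.

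Ltc4s (transcript cluster 10385583), which joins the leukotriene precursor to glutathione and so opens the cysteinyl leukotriene branch, stood at 6.41, 6.67, 6.63 and 6.68 on the control arrays and at 6.44, 6.60, 6.60 and 6.51 on the cuprizone arrays. Every cuprizone array lay within the range of the controls. The log2 difference was -0.06 ± 0.07 (SE, limma adjusted p = 0.709), with a 95% confidence interval of -0.22 to 0.10.

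Cell type markers moved with the same comparison. All 12 measured oligodendrocyte markers fell, among them Mog (-3.78 ± 0.18, SE) and Fa2h, which makes hydroxylated fatty acids for myelin (-2.60 ± 0.12). Their mean stood at -2.84, -1.99, -2.20 and -2.40 relative to the control mean on cuprizone replicates 1 to 4. Ptgds had fallen least, by 0.51, on replicate 1, where this mean was lowest, and most, by 1.54, on replicate 4. Pla2g4a had fallen least, by 0.36, on replicate 1 too, and most, by 0.79, on replicate 2, where the oligodendrocyte mean was highest of the cuprizone arrays. Of 7 oligodendrocyte progenitor markers 1 was called lower, Cspg5, a proteoglycan gene (-0.37 ± 0.06, SE, limma adjusted p = 0.00206), and none higher. With Cspg5 counted, 4 of the 7 passed an unadjusted p under 0.05 in limma, all lower. The mean of the 7 was -0.27, -0.08, -0.06 and -0.21 on cuprizone replicates 1 to 4, and lay between -0.07 and 0.07 on the controls. The part of the oligodendrocyte markers' fall in either difference was not tested, and in bulk tissue fewer cells of a type and less RNA per cell cannot be told apart.

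Ptgds is also a gene of meninges and choroid plexus, and the arrays differed in choroid plexus RNA. Ttr, the choroid plexus transthyretin, stood at 12.11 to 12.58 on replicates 2 and 4 of both groups and at 9.56 to 10.23 on replicates 1 and 3 of both groups. The mean of the 10 measured choroid plexus and ependyma markers ranged from -0.56 to 0.59 on the controls and from -0.58 to 0.27 on the cuprizone arrays, relative to the control mean, and 1 of the 10 was called, Rarres2 (-0.34 ± 0.07, SE). With this mean as a covariate, a setting chosen after the split in Ttr was seen, Ptgds was at -1.09 (limma adjusted p = 0.00463), Pla2g4a at -0.57 and Tbxas1 at 0.21, all 3 called. None of 10 meningeal fibroblast markers was called in limma, 2 passed an unadjusted p under 0.05 and the smallest adjusted p was 0.0584. Their mean lay between -0.06 and 0.02 on the controls and between -0.12 and 0.18 on the cuprizone arrays.

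Astrocyte markers moved both ways, with 3 of 9 called higher and 2 lower. Gfap, the intermediate filament of reactive astrocytes, rose by 0.96 ± 0.06 (SE, limma adjusted p = 4.72e-06), and Slc1a2, a glutamate transporter, fell by 0.60 ± 0.07 (limma adjusted p = 0.000315). The mean of the 9 lay between -0.03 and 0.07 on the controls and between -0.10 and 0.17 on the cuprizone arrays. In limma none of 11 markers of endothelium and mural cells was called, with 4 at an unadjusted p under 0.05, and none of 10 of neurons, with 2. The part of these cells in the enzyme genes' differences was not tested.

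Of 11 measured microglial markers 6 were called higher, with Csf1r at 0.61 ± 0.06 (SE) and Laptm5 at 0.67 ± 0.07, and none was called lower. The other 5 were not called: Gpr34 (0.31), Cx3cr1 (0.27), Siglech (0.05), P2ry13 (-0.05) and P2ry12 (-0.06). The mean of the 11 stood at 0.15, 0.29, 0.45 and 0.32 on cuprizone replicates 1 to 4, and between -0.09 and 0.06 on the controls. On replicate 3, the highest of these, Hpgds (0.31), Tbxas1 (0.23), Ptgs2 (0.38) and Alox5ap (0.21) also had their largest differences from the control mean. On that array Alox5 was at its lowest (-0.19), and Ltc4s (-0.0031) and Ptges (-0.03) were near their control means, so the 9 genes did not share the order of the arrays. On replicate 1, the lowest, Hpgds (0.15) and Tbxas1 (0.16) had their smallest. In limma none of 9 markers of border-associated macrophages was called (0 at an unadjusted p under 0.05), nor any of 12 of blood leukocytes (1) or 8 of mast cells and platelets (1). Their part in these differences was not tested.

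**Figure D3:**
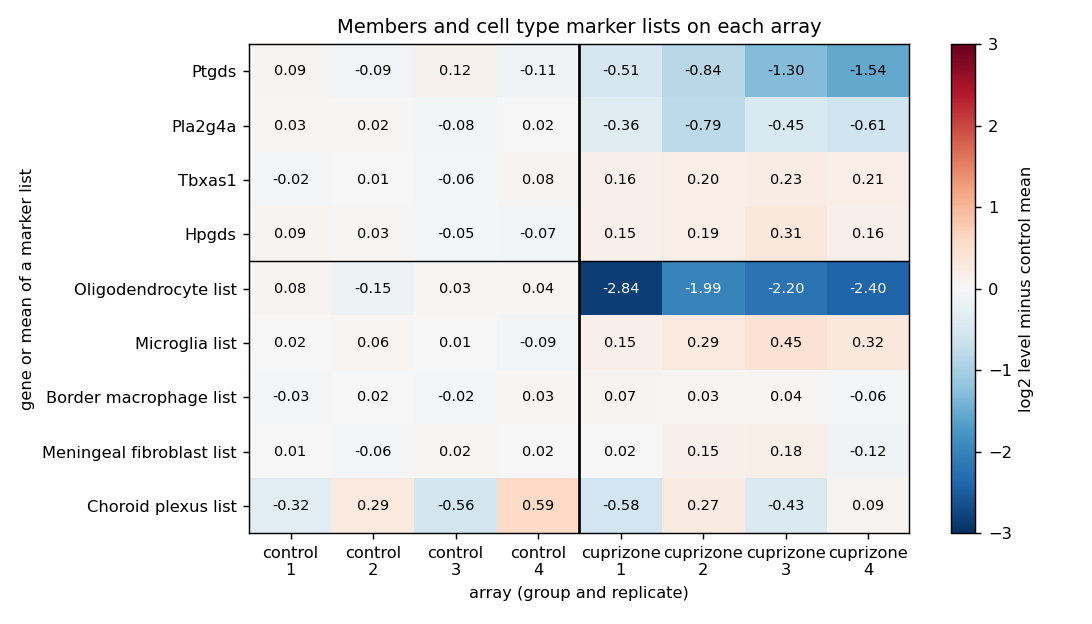
Log2 level minus the control mean, as colour and printed value, of 4 enzyme genes and of the means of 5 cell type marker lists (rows) on each control and cuprizone array (columns). The oligodendrocyte mean is lowest on cuprizone replicate 1 (-2.84) while Ptgds is lowest on replicate 4 (-1.54), and the choroid plexus mean is higher on replicates 2 and 4 than on replicates 1 and 3 in both groups.

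Genes with patterns most like those of the called members were sought among all named genes, by the root mean square difference over the 8 arrays between log2 levels centred on the control mean. For Ptgds they were Pigz (0.257), Sp7 (0.263) and Lgi3 (0.267). Ptgds itself deviated by 0.795 from the control mean on this measure, so these matches were loose. Pigz lay at -1.12, -0.94, -1.18 and -1.36 on cuprizone replicates 1 to 4, closer together than Ptgds. For Pla2g4a they were Atp8b1 (0.0621), Neurod1 (0.0911) and Nwd2 (0.108), against 0.408 for its own deviation, and Atp8b1 lay at -0.39, -0.66, -0.52 and -0.68. For Tbxas1 they were Anxa4 (0.0320), Vps36 (0.0338) and Szrd1 (0.0349), against 0.146.

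The rest of the pathway was read from 7 lists with 70 measured genes. Of these 6 rose and 2 fell, 8.57% and 2.86%, against 4.71% and 3.52% of all clusters, and the median log2 difference was -0.05. The number that fell was 1 without control replicate 2, control replicate 4 or cuprizone replicate 3, and 4 without cuprizone replicate 2. Among 27 genes that release, trap or hand on arachidonic acid 2 fell and 1 rose, with a median of -0.07. Plaat3, a phospholipase and acyltransferase, fell from 8.32 ± 0.17 to 7.52 ± 0.24 (mean ± SD, n = 4 each), by 0.80 ± 0.12 (SE, limma adjusted p = 0.00149). Mgll, the lipase that frees arachidonic acid from an endocannabinoid, fell by 0.32 ± 0.07 (limma adjusted p = 0.0190), and its adjusted p was 0.0581 without control replicate 2, 0.0597 without control replicate 4, 0.0592 without cuprizone replicate 3 and 0.0719 without moderated variances. Lpcat2, which puts fatty acids back on lysophospholipids and makes platelet-activating factor, rose by 0.37 ± 0.08 (limma adjusted p = 0.0121), and had an adjusted p of 0.0639 without moderated variances.

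None of 6 other prostanoid synthesis enzymes was called in limma, and 1 passed an unadjusted p under 0.05, Ptges3 (0.25 ± 0.09, SE, adjusted p = 0.114), a prostaglandin E synthase and co-chaperone with several transcript clusters. In the list of 5 genes of prostanoid transport and breakdown 2 rose and none fell, with a median of 0.29. Hpgd, the dehydrogenase that inactivates prostaglandins, stood at 7.48, 7.51, 7.64 and 7.35 on the control arrays and at 7.86, 7.92, 8.14 and 7.95 on the cuprizone arrays. All 4 cuprizone arrays were above all controls. Hpgd rose by 0.47 ± 0.08 (SE, limma adjusted p = 0.00334), 1.39-fold. Abcc4, which exports prostaglandins, rose by 0.29 ± 0.07 (limma adjusted p = 0.0344). Its limma adjusted p was 0.0600 to 0.0973 without any 1 of 6 arrays (control replicates 1, 3 and 4, cuprizone replicates 1, 2 and 4). It was 0.0518 after a further quantile normalization, 0.0564 with arrays centred on their median and 0.0978 without moderated variances. The importer gene Slco2a1 varied from 6.24 to 7.24 on the cuprizone arrays and was not called (0.32 ± 0.18, SE).

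**Figure D4:**
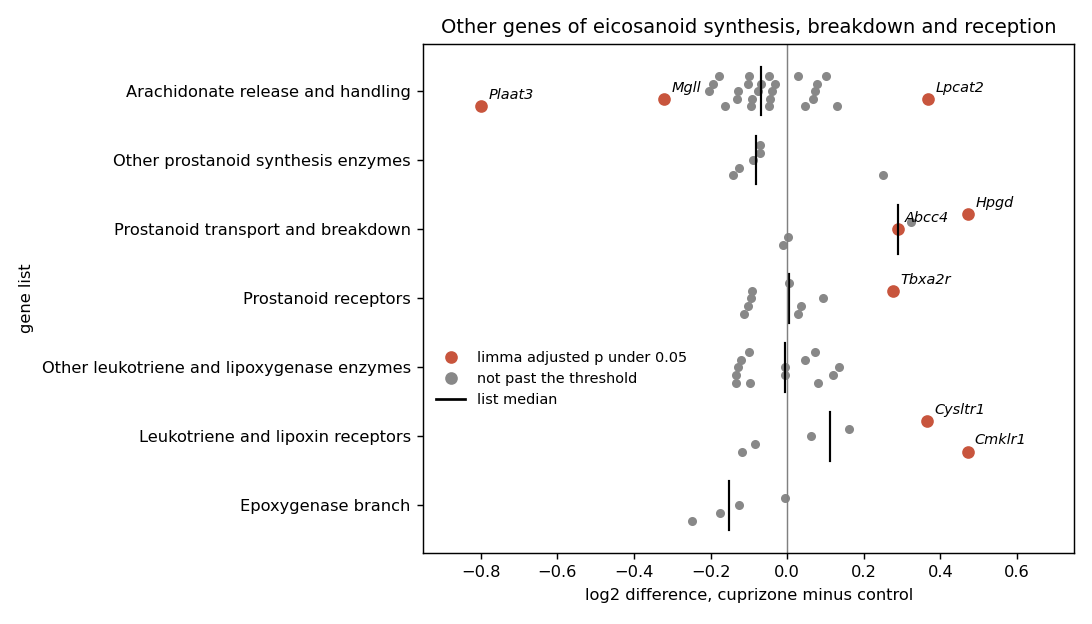
Log2 difference, cuprizone minus control (horizontal axis), of the 70 measured genes of 7 further eicosanoid lists (rows), each point 1 gene and each black line the median of a list. The 8 named points passed the threshold: Plaat3 and Mgll lie left of 0, and Lpcat2, Hpgd, Abcc4, Tbxa2r, Cysltr1 and Cmklr1 right of it.

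Among 9 prostanoid receptors Tbxa2r, the receptor of thromboxane, rose by 0.28 ± 0.05 (SE, limma adjusted p = 0.00921), and the other 8 were not called. Its levels were 7.01, 6.97, 6.93 and 7.00 on the control arrays and 7.21, 7.24, 7.35 and 7.22 on the cuprizone arrays, without overlap. The thromboxane receptor was 1.21-fold higher and its call held in all 19 settings in which it was tested, whereas that of the synthase Tbxas1 (1.15-fold higher) held in 8 of 19. Neither receptor of prostaglandin D was called, Ptgdr at 0.09 and Ptgdr2 at -0.11.

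Of 6 measured genes of leukotriene and related lipid receptors 2 rose and none fell, with a median of 0.11. The lipoxin receptor gene Fpr2 was not among the 6. Cysltr1, a receptor of cysteinyl leukotrienes, stood at 6.33, 6.36, 6.13 and 6.27 on the control arrays and at 6.69, 6.62, 6.53 and 6.72 on the cuprizone arrays. It rose by 0.37 ± 0.07 (SE, limma adjusted p = 0.00607), 1.29-fold, beside the uncalled Ltc4s, Alox5 and Alox5ap. Cmklr1, a receptor of chemerin that also binds a resolvin, rose from 6.60 ± 0.14 to 7.07 ± 0.09 (mean ± SD, n = 4 each), by 0.47 ± 0.08 (limma adjusted p = 0.00298), whereas Rarres2, which encodes chemerin, fell by 0.34.

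In limma none of 13 other leukotriene and lipoxygenase enzymes was called, and 1 passed an unadjusted p under 0.05, the exporter gene Abcc1 (-0.13 ± 0.06, SE). None of 4 epoxygenase genes was called, and 2 passed an unadjusted p under 0.05. Ephx2, the soluble epoxide hydrolase, had the smallest p of them (-0.25 ± 0.07, limma adjusted p = 0.0662), and an adjusted p of 0.0317 without cuprizone replicate 2, 0.0482 with arrays centred on their median and 0.0445 without clusters below the lower quartile. On the cuprizone arrays it stood at 6.83, 7.15, 6.95 and 7.10, all below the controls at 7.19 to 7.30.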

How the data were processed

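Total RNA (150 ng) from each of 8 corpus callosum samples was hybridised to 1 Affymetrix Mouse Gene 1.0 ST array. The deposited values are log2 levels per transcript cluster, and the authors' tools were Affymetrix Expression Console, RMA and Transcriptome Analysis Console, per the submitters' processing notes, without versions or roles. RMA as published corrects background, quantile normalizes arrays and summarises probes, which compresses large folds and removes shifts shared by most transcripts. The genome build and an aligner are not given in the sources used here, and signal over background is unknown per cluster, so no level was called absent.

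Clusters were named from the platform annotation: 21789 had 1 symbol and 1621 several. The 23410 named clusters were fitted with limma 3.58.1 in R 4.3.3 as 2 groups, without covariates, moderated at default settings and two-sided, and p-values were adjusted by Benjamini-Hochberg over all of them. Errors beside a difference are SEs from this fit and those beside a level are SDs. The fit was tested on simulated data. Genes other than members were named if they had the smallest p among those called in a list (up to 4). Where none was called, the gene with the smallest p was named. Up to 2 markers were named per cell type. Ttr, Ptgdr, Ptgdr2, Slco2a1 and the uncalled microglial markers were named after their values were seen. Members and lists were chosen with earlier results of these data known. The labels call the arrays biological replicates, and the number of arrays limits the precision. Array medians lay between 7.44 and 7.49. Promoter sequences came from RefSeq, build GRCm38.p6. The alternatives were each array left out, a replicate block, scaling, filters, priors, weights and the choroid plexus covariate.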

Additional observations from a re-analysis of the deposited data

Results flagged for a closer look

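In 2 of 40 groups of 4 arrays examined (20 genes in each diet), 1 array stood apart from the other 3 by more than Dixon's 95% critical share of the range of its group, which chance gives in about 1 in 20 groups. Alox5ap was at 7.26 on cuprizone replicate 3, against 7.00 to 7.04 on the other cuprizone arrays. On control replicate 3 Pla2g4a read 7.11, and the other controls read 7.20 to 7.22. Its difference without that array was -0.58 (limma adjusted p = 0.00576).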

How the results depend on the processing

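Pla2g4a was lower and past the limma threshold in all 18 alternatives, at -0.62 to -0.47, and Ptgds was lower in all 19, at -1.23 to -0.88, and past it in all but the fit without moderated variances. Members called higher numbered 0 with a replicate block, with an intensity trend and robust prior, with arrays centred on their median, with clusters above the median and with all clusters, named or not, and 2 with clusters above the lower quartile; leaving out 1 array gave 0 to 1. Members called lower numbered 1 with clusters above the median, where only 2 members were tested, and 1 without moderated variances. Other eicosanoid genes called higher numbered 3 with clusters above the median, where 27 were tested. Those called lower numbered 1 with a replicate block, 1 without moderated variances, and 1 to 4 with 1 array left out. Without moderated variances 632 clusters were called higher. With 1 array left out Ptges ranged from -0.064 to 0.032, above 0 at 0.032, 0.0016 and 0.023 without control replicate 2, control replicate 4 or cuprizone replicate 2, and Alox5ap from -0.040 to 0.049, below 0 only without cuprizone replicate 3. The cause of these changes was not tested except where fewer genes were tested. Over all fitted clusters, same-numbered arrays of both groups deviated together at r of -0.19, -0.02, 0.21 and -0.06, so the numbers were not taken as pairs. The choroid plexus mean did go with the number, higher on replicates 2 and 4 than on 1 and 3 in both groups. With the replicate block 892 clusters were called higher and 636 lower, against 1102 and 823 without it. The limma adjusted p with the block was 0.0970 for Tbxas1 and 0.0525 for Mgll. Arrays give no counts, so depth does not apply. A dim cluster's difference may be understated by an unknown amount, which was not tested.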
